A study of Homo sapiens with 10 samples.

Results

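The MYC gene and its flanks in band 8q24 were examined in MDAMB231, an established triple-negative breast cancer cell line grown in DMEM with 5% FBS and given no treatment. The members are the peaks that share a base with chromosome 8 between 127.5 and 130.5 Mb (hg19), a window of 3 Mb. There were 217 of them among the 128837 peaks of 4 deposited lists, namely 53 of 26771 for H3K4me1, 7 of 18019 for H3K4me3, 54 of 37495 for H3K27Ac and 103 of 46552 for FAIRE. MYCN, MYCL and MAX, each widened by 50 kb, were described for comparison.

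The study used ChIP-seq, in which an antibody recovers DNA wound on a modified histone, and FAIRE-seq, which recovers DNA free of nucleosomes. Each of H3K4me1, H3K4me3, H3K27Ac and FAIRE was measured in 2 samples, with 1 input sample for ChIP and 1 for FAIRE, 10 samples in all. The 2 samples of an assay stand combined in the deposited files, so each assay has 1 list, no value has a replicate error and no test between samples was possible. Peaks of a window are neighbours and not replicates, and the intervals given for shares cover counting error over peaks only.

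MYC encodes a transcription factor that dimerises with MAX, binds the E-box and drives growth and proliferation, and it is among the genes most often gained in breast cancer. MYCN and MYCL are its paralogs, the MXD proteins, MXI1, MNT and MGA compete with it for MAX, and MLX with its partners MLXIP and MLXIPL forms a parallel branch of the network. MYC lies in a gene desert shared with the long noncoding RNA gene PVT1 and with other noncoding RNA genes, a stretch known to hold enhancers that act on MYC in several epithelial cancers. H3K4me3 marks promoters, H3K4me1 marks enhancers, H3K27Ac marks active forms of both and FAIRE marks their nucleosome-depleted cores.

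At MYC itself all 4 lists had a peak. The gene (ENSG00000136997) occupies chr8:128747680-128755197 on the plus strand. A single H3K27Ac peak at chr8:128745318-128756380 covered the gene from end to end and reached beyond it on both sides. It was 11063 bp wide, wider than 99.0% of its list, and had a score of 3100. The score rises as the p-value that MACS gave the peak falls (100 stands for a p-value of 1e-10), and 3100 is where most of the strongest peaks pile up, so peaks at that score could not be ranked. The H3K4me3 peak at chr8:128745549-128753377 also had a score of 3100, which is the median of the H3K4me3 list, and, at 7829 bp, was wider than 99.5% of that list. In contrast, the H3K4me1 peak at chr8:128750991-128756725 lay toward the 3' end of the gene and had a score of 69.5, lower than most of its list. It was near an internal start site, and within 1 kb of the gene's own start bound 3 of the 4 lists had a peak.

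FAIRE peaks at MYC were found around both ends of the gene, and 5.53% of the gene itself was covered. The FAIRE value is the height of the peak as deposited. Upstream, in an intron of the antisense noncoding gene CASC11, the peak at chr8:128745803-128746977 had a height of 111, above 90.2% of the FAIRE list. The peak at chr8:128747264-128747972, which covers the annotated MYC start, had a height of 69.9. The last of the 3, at chr8:128755075-128756560, began inside the last exon and ran past the end of the gene with a height of 84.8. These 6 peaks were the whole content of the 4 lists within 10 kb of MYC.

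**Figure D1:**
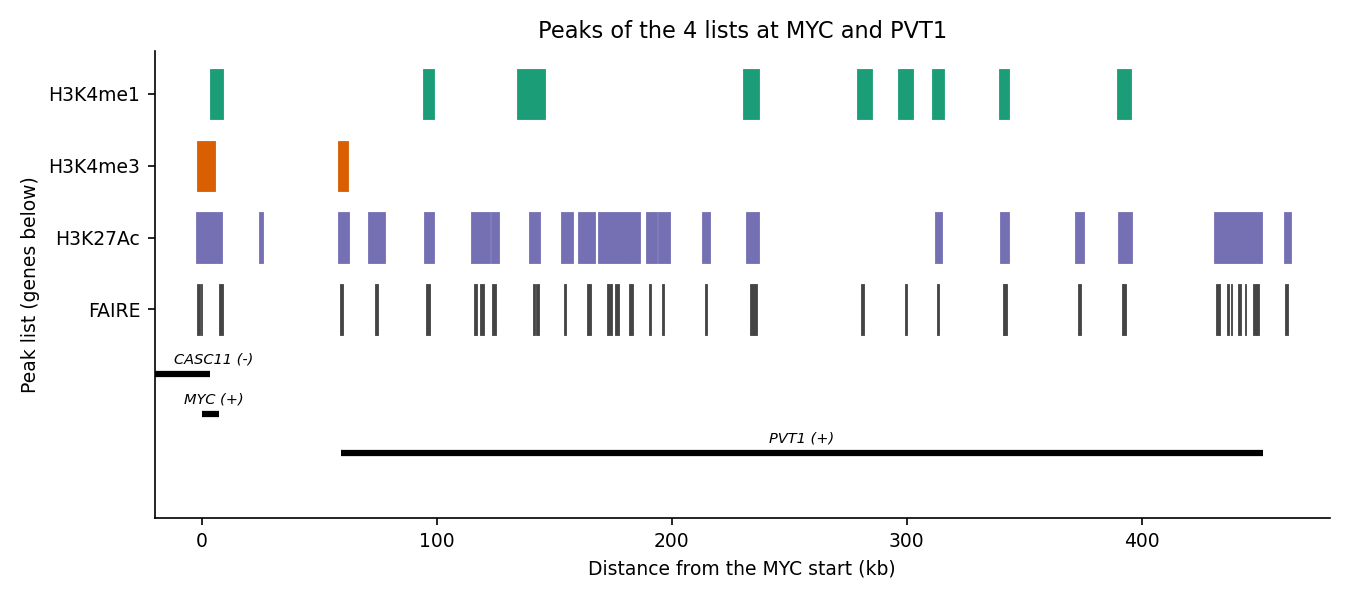
Peaks of the 4 lists around MYC and PVT1, with distance from that start in kb on the x axis and 1 row of boxes per list. Genes are black bars with their strand, and H3K27Ac and FAIRE peaks crowd the PVT1 bar, where H3K4me1 peaks number 8.

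The window as a whole was rich in FAIRE and H3K4me1 peaks and poor in H3K4me3, while H3K27Ac peaks were dense mainly over PVT1. FAIRE peaks stood at 34.3 per Mb, compared with 15.3 per Mb over chromosomes 1 to 22 and X, a ratio of 2.24. H3K4me1 had a ratio of 2.0 and H3K27Ac one of 1.46, whereas H3K4me3, at 2.33 peaks per Mb against 5.93, had a ratio of 0.394. By part, the H3K27Ac ratio was 1.04 before MYC, 3.92 in PVT1 and 1.06 beyond PVT1. H3K27Ac peaks covered 8.07% of the window and 3.95% of those chromosomes, and FAIRE peaks 3.62% and 1.47%. When the genome was divided into 1006 fixed windows of 3 Mb, 974 held fewer FAIRE peaks than the MYC window and 30 held more. For H3K4me1, 901 held fewer, for H3K27Ac 752 and for H3K4me3 194. With H3K4me1 scores of 100 or more, 33 of the 53 H3K4me1 peaks were left, and 15282 of the 26771 of the list, for a ratio of 2.19. The counts are a description of where the window stands and were not tested.

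**Figure D2:**
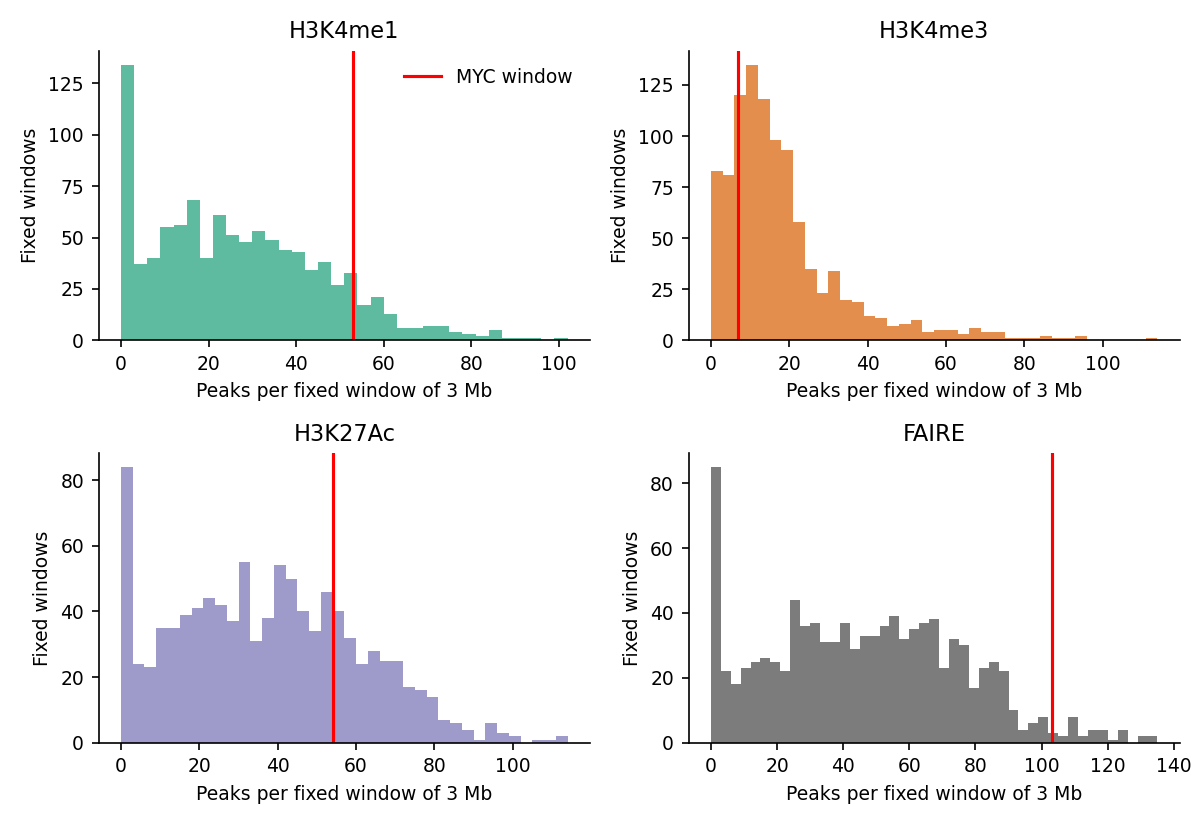
Number of fixed windows of 3 Mb (y axis) by their count of peaks (x axis), 1 panel per list, with the MYC window as a red line. The line is at 103 for FAIRE and at 7 for H3K4me3, where the median fixed window held 46 and 14.

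Peaks in the window were also somewhat taller than usual for FAIRE. The median height was 70.6 and that of the whole list 61.1, and 69 of the 103 were above the list median, compared with 50% of the list by definition. By part, the median height was 69.7 before MYC, 79.65 in PVT1 and 61.9, close to that of the list, beyond PVT1. For H3K4me1, 32 of 53 were above the median score of the list, again against 50%. A score of 3100 was reached by 9 of the 54 H3K27Ac peaks, against 10.5% of the list. In PVT1 it was reached by 5 of 19 and in the rest of the window by 4 of 35.

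**Figure D3:**
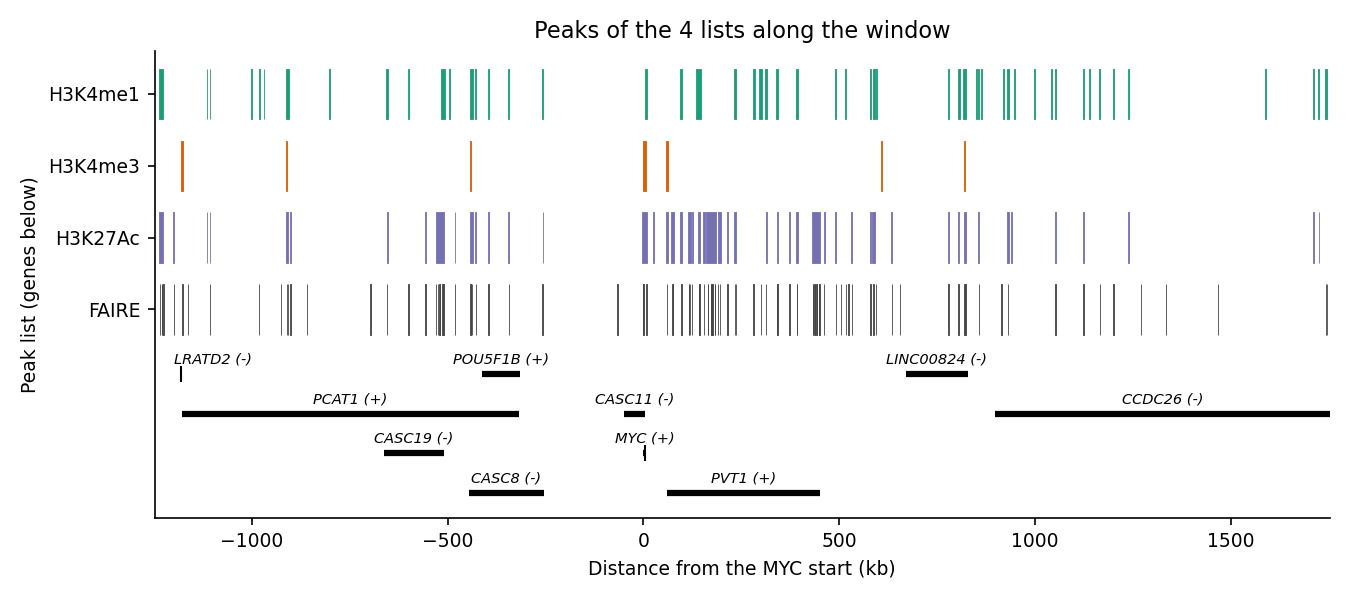
Peaks of the 4 lists along the whole window, with distance from the MYC start in kb on the x axis, 1 row of boxes per list and genes as black bars with their strand. FAIRE and H3K27Ac peaks crowd together over PVT1, and all lists are empty for 187 kb up to the FAIRE peak that begins 68.2 kb before MYC.

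FAIRE peaks were densest over PVT1 (ENSG00000249859), as were those of H3K27Ac apart from the single peak over MYC itself. PVT1 starts 59.1 kb beyond the MYC start and spans 393 kb at chr8:128806772-129199347. Its bounds held the centres of 40 FAIRE peaks, 19 H3K27Ac peaks, 8 H3K4me1 peaks and 1 H3K4me3 peak. This gave 102 FAIRE peaks per Mb, 6.65 times the genome density, and 48.4 H3K27Ac peaks per Mb, 3.92 times. The deposited FAIRE peaks are subpeaks, and neighbours that abut with no gap were counted apart, here and over the genome. Several in PVT1 abutted, such as chr8:128863613-128864129 and chr8:128864130-128864981. H3K27Ac covered 30% of the gene, compared with 5.37% of the 1248 kb between the window's start and MYC and 3.53% of the 1301 kb beyond PVT1. On the MYC side of the window FAIRE peaks stood at 28.1 per Mb and beyond PVT1 at 20.8 per Mb. H3K4me1 peaks were about as dense in PVT1, at 20.4 per Mb, as beyond it, at 20.8 per Mb, but they covered 13.3% of PVT1, compared with 6.12% beyond it and 4.84% before MYC, and had a median score of 219 in PVT1 and 121 beyond it. The 51.6 kb between MYC and PVT1 held the centres of 1 FAIRE peak, at the end of MYC, and of 1 H3K27Ac peak, with a score of 83.3.

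At the PVT1 start, the H3K4me3 peak at chr8:128805613-128809905 had a score of 3100 and the H3K27Ac peak at chr8:128805795-128810236 a score of 1774. The FAIRE peak there, at chr8:128806692-128807889, had a height of 34.8, the lowest of the window. PVT1 has 132 annotated start sites, and within 1 kb of any of them lay 7 FAIRE, 7 H3K27Ac, 1 H3K4me1 and 1 H3K4me3 peaks. The H3K4me1 peak, at chr8:129058450-129063449 with a score of 122, was at an internal start site. At the gene's own start bound 3 of the 4 lists had a peak.

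Acetylated chromatin within PVT1 often lacked H3K4me1. Of its 19 H3K27Ac peaks, 6 shared a base with an H3K4me1 peak and 13 did not. Of those 13, 12 also lacked an H3K4me3 peak, as did all 9 without H3K4me1 in the rest of the window. The matching share over the whole H3K27Ac list was not counted, so these counts have no background to be read against. In the rest of the window, 26 of 35 H3K27Ac peaks shared a base with H3K4me1. Over the window the share was 32 of 54 (59.3%, 95% Wilson interval 46.0% to 71.3%), against 54.6% of the whole H3K27Ac list. All 19 H3K27Ac peaks of PVT1 shared a base with a FAIRE peak, compared with 29 of 35 in the rest of the window and 68.2% of the list. The 19 PVT1 peaks had a median score of 1720 and a median width of 5229 bp. In the rest of the window these were 345 and 2264 bp, and in the whole list 591 and 2664 bp. The difference between the parts of the window was not tested.

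Counted over the window, 48 of 54 H3K27Ac peaks shared a base with a FAIRE peak (88.9%, 95% Wilson interval 77.8% to 94.8%), against 68.2% of the list. In the other direction, 79 of 103 FAIRE peaks shared a base with H3K27Ac (76.7%, against 71.8% of the list), 49 with H3K4me1 (47.6%, against 54.9%) and 90 with a peak of any histone list (87.4%, against 80.4%). FAIRE peaks with H3K27Ac and neither H3K4 methylation list numbered 37, or 35.9% of the window's FAIRE peaks, compared with 10.2% of all FAIRE peaks. The marks were not even along the window. Within PVT1, 38 of 40 FAIRE peaks shared a base with H3K27Ac and 13 with H3K4me1. Before MYC the counts were 26 and 18 of 35, and beyond PVT1 14 and 17 of 27. The 13 FAIRE peaks with no histone peak (12.6%, against 19.6% of the list) had a median height of 50.9, compared with 47.8 for such peaks of the list.

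Of the H3K4me1 peaks of the window, 31 of 53 shared a base with H3K27Ac (58.5%, 95% Wilson interval 45.1% to 70.7%), against 74.7% of the list. With scores of 100 or more in both lists it was 23 of 33 (69.7%, 52.7% to 82.6%), against 81.4%, which lies inside the interval, and the difference was not tested. With FAIRE the share was 37 of 53 (69.8%), against 71.4%. Both H3K27Ac and FAIRE, without H3K4me3, were found at 23 H3K4me1 peaks (43.4%, against 50.2% of the list), whose median score was 228, compared with 166 for such peaks of the list. None of the 3 was found at 12 (22.6%, against 13.6%), with a median score of 71.2, compared with 70.7. Of the 27 H3K4me1 peaks beyond PVT1, 13 shared a base with H3K27Ac.

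The 5 tallest FAIRE peaks of the window were all in introns of PVT1. Near its 3' end, the peak at chr8:129195146-129196177 had a height of 199, above 99.9% of the list, and that at chr8:129188461-129189996 a height of 192. Both were inside the H3K27Ac peak at chr8:129178439-129198989, which was 20551 bp wide with a score of 2304 and shared no base with H3K4me1. The next, at chr8:129139870-129140933, had a height of 168 and lay on an H3K27Ac peak that also carried H3K4me1. The peaks at chr8:128920054-128920762 and chr8:128911424-128912275, with heights of 162 in both cases, were nearer to the 5' end of the gene than to its 3' end and shared no base with H3K4me1. The widest FAIRE peak as deposited, at chr8:128679479-128681676, lay upstream of MYC, had a height of 80.3 and carried no histone peak. It was followed in width by peaks of 2062 bp in LINC00824 and 1956 bp in PVT1. Peaks that abut, such as chr8:129566883-129568509 and chr8:129568510-129570214 in LINC00824, were not joined for this ranking.

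**Figure D4:**
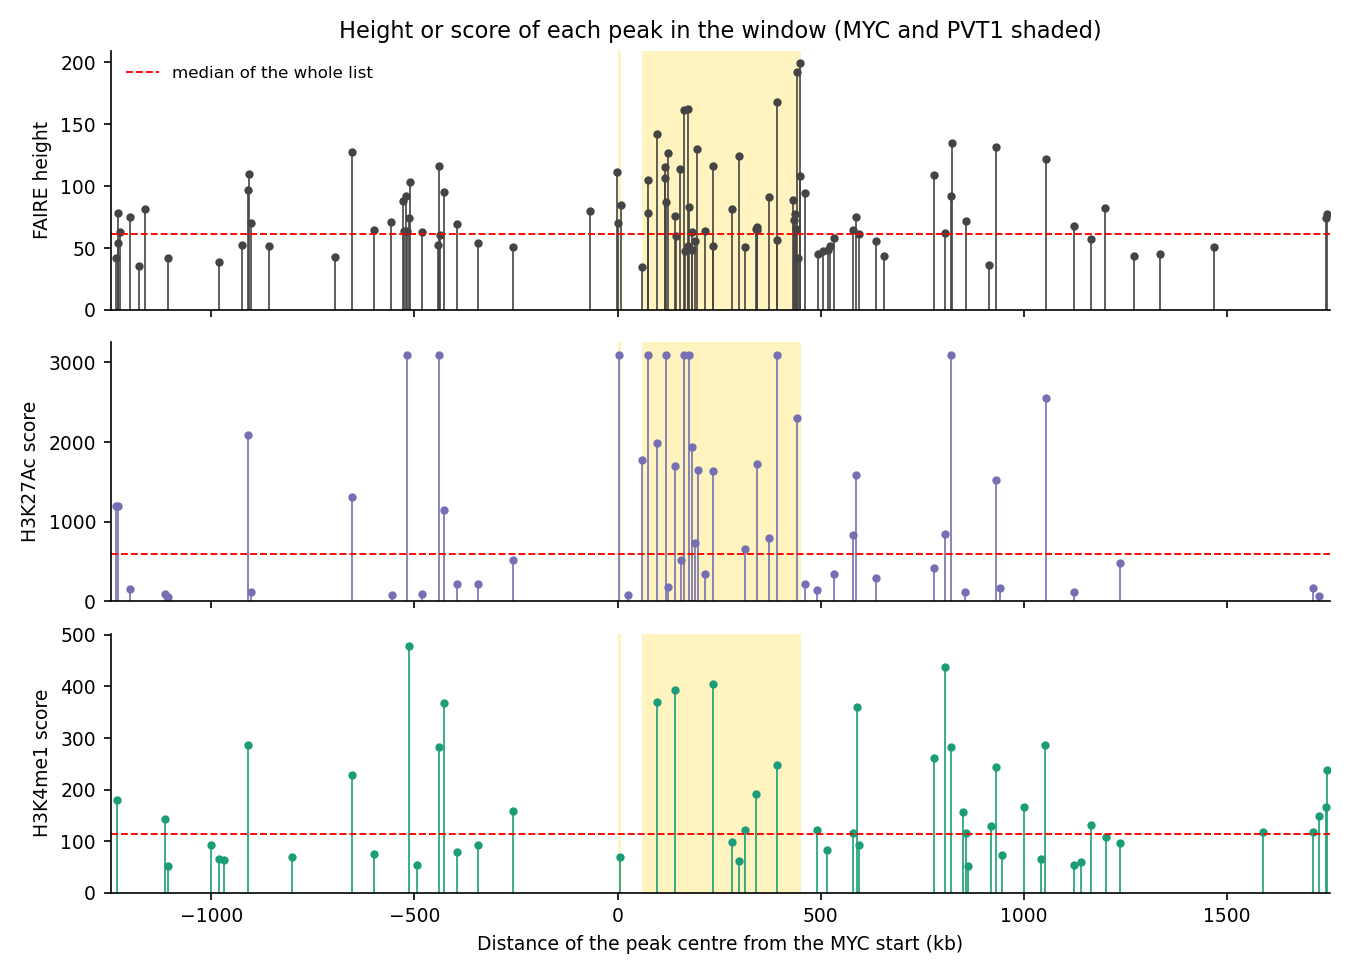
FAIRE height, H3K27Ac score and H3K4me1 score (y axes) of each peak in the window by the distance of its centre from the MYC start in kb (x axis). Each point is 1 peak, the dashed line is the median of the whole list and MYC and PVT1 are shaded; the tallest FAIRE peak, at 199, is near the 3' end of PVT1.

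H3K27Ac peaks were joined into clusters where the gap was 10 kb or less, which gave 39 clusters in the window, 29 of them single peaks, and 26538 over chromosomes 1 to 22 and X with a median span of 3.08 kb. The longest in the window, chr8:128887141-128946990, lay 139.5 to 199.3 kb beyond the MYC start, inside PVT1. It joined 7 peaks over 59.9 kb, ranked 56 by span and 32 by covered bases, and held 12 FAIRE peaks and 1 H3K4me1 peak. With gaps of up to 20 kb joined, the longest cluster spanned 179 kb with 14 peaks. The second, chr8:129178439-129211032, spanned 32.6 kb at the 3' end of PVT1 with 9 FAIRE peaks and no H3K4me1 peak. The third was the widest single H3K27Ac peak of the window, 22961 bp at chr8:128216858-128239818 over PCAT1 and CASC19, noncoding genes upstream of MYC. Its centre lay in introns of both genes, and it also covered exon sequence of CASC19. The peak shared bases with 6 FAIRE peaks and with the H3K4me1 peak with the highest score of the window, 478. The fourth, of 20 kb, began at the PVT1 start. The fifth, of 16.8 kb at chr8:128304634-128321461, had the centres of its peaks in introns of PCAT1 and CASC8. The MYC peak itself spanned 11.1 kb and ranked 4410.

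The 9 H3K27Ac peaks with a score of 3100 lay mostly in PVT1. PVT1 held 5 of them, the MYC gene 1, the region before MYC 2 and the region beyond PVT1 1, at chr8:129565321-129570811 in an intron of LINC00824. After the PCAT1 and CASC19 peak, the highest H3K4me1 scores were 437 at chr8:129551192-129556544 in LINC00824, and 405, 392 and 370 in introns of PVT1. The peak with a score of 392, at 12112 bp, was the widest H3K4me1 peak of the window. The other wide H3K4me1 peaks were 11307 bp near the window's start and 9096 bp at CASC19, and after the 2 widest H3K27Ac peaks came one of 11112 bp in PVT1.

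H3K4me3 was confined to 7 peaks, of which 5 shared a base with H3K27Ac (against 81.1% of the H3K4me3 list). Those at MYC, at the PVT1 start and at LRATD2 had a score of 3100, a score that 56.8% of the list reached or passed. The LRATD2 peak, chr8:127567724-127571516, covered the start sites of that protein-coding gene (formerly FAM84B) and of PCAT1, and it had a FAIRE peak of height 35.9 but no H3K27Ac peak nearer than 18.7 kb to an LRATD2 start site. The other 4 were weak and narrow, with scores of 448 in PCAT1 and CASC8, 309 in PCAT1, 138 in LINC00824 and 116 beyond PVT1. The first 2 lay within 1 kb of an internal start site of PCAT1.

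Start sites of the other named genes were mostly bare of H3K4me3, and no share over all noncoding genes was counted for comparison. PRNCR1 and CASC19 had H3K4me1, H3K27Ac and FAIRE peaks and no H3K4me3, as had the microRNA MIR1207 inside PVT1. MIR1205, MIR1208, CASC8, LINC00824, CCDC26 within the window and POU5F1B, a retrogene of POU5F1, had no peak of any list within 1 kb. CASC11, which overlaps the start of MYC on the other strand, had all 4, and these were peaks already described at MYC. PCAT1 also had all 4 over its 31 start sites. CCAT1, CASC21, TMEM75, MIR1204, MIR1206, LINC00976 and LINC00977 were not analysed here.

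Large stretches of the window held nothing. The longest with no peak of any list, chr8:128492124-128679478, was 187 kb and ended 68.2 kb before MYC. With H3K27Ac alone, the stretch upstream of MYC was 253 kb and reached to 2.36 kb before the gene's start, and the longest in the window, chr8:129986302-130457377, was 471 kb. H3K4me3 had no peak for 546 kb from the PVT1 start onward. The next longest stretches without any peak, of 132 kb and 122 kb, began 1335 kb and 656 kb beyond the MYC start.

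Letters bound by known factors were counted in the central 300 bp of each FAIRE peak, on both strands, with motifs chosen after the peaks had been listed. TGANTCA, the AP-1 site, was present in 39 of the 103 (37.9%, 95% Wilson interval 29.1% to 47.5%), against 39.2% of the FAIRE list. Within PVT1 it was in 20 of 40 peaks (50%, 35.2% to 64.8%) and in the rest of the window in 19 of 63 (30.2%, 20.2% to 42.4%), and these intervals overlap. CACGTG, the canonical E-box of MYC and MAX, was in 3 of the 103, against 4.58% of the list. A match is a description of letters and not of binding.

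MYCN, MYCL and MAX differed in how many peaks lay within 50 kb of their bounds. The counts include peaks away from a gene's own start, such as an H3K27Ac peak of 652 that lay 18.0 kb from the MYCL start. MYCN (ENSG00000134323), on chromosome 2, had no peak of any list (0 in all) within 50 kb of its bounds, and the nearest H3K4me1 peak was 205 kb from its start sites and the nearest H3K4me3 peak 347 kb. MYCL (ENSG00000116990), on chromosome 1, had 5 peaks within 50 kb. Its own start had an H3K4me3 peak with a score of 3100 and an H3K27Ac peak of 125, a score higher than 17.6% of that list, with no H3K4me1 and no FAIRE. MAX (ENSG00000125952), on chromosome 14, had 13 peaks within 50 kb, a span of 196.5 kb, and its start had H3K4me3 (3100), H3K27Ac (1411) and FAIRE (59.4) but no H3K4me1. Widening by 100 kb instead gave 10 peaks at MYCL and 24 at MAX. By the same rule of 50 kb, MYC held 7 peaks in 107.5 kb and PVT1 74 in 492.6 kb. No start site of these genes outside MYC and PVT1 had an H3K4me1 peak.

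Of the 13 genes of the MAX network, MYC included, 12 had an H3K4me3 peak within 1 kb of a start site, against 67.3% of 20098 protein-coding genes. H3K27Ac was at 11 (63.5%), FAIRE at 8 (39.3%) and H3K4me1 at 3 (20%), with the shares of protein-coding genes in parentheses. Within 5 kb, H3K4me1 was at 6 (26.9%) and all 4 lists were at 5 (20%). MYCN was the 1 gene with no peak within 1 kb, against 29.3% of protein-coding genes. The 3 genes with all 4 lists were MYC, MNT and MLXIP, against 13.1%. With histone scores of 100 or more MYC lost its H3K4me1 call and 2 genes had all 4, against 7.41%. MNT, a repressor that pairs with MAX, had a 17189 bp H3K27Ac peak with a score of 139. MLXIP had its H3K4me1 and FAIRE peaks, with an H3K27Ac peak, at an internal start site. Its H3K4me3 peak, with another H3K27Ac peak, was at the gene's own start, which had no FAIRE peak. Among the repressors MXD1, MXI1, MXD3 and MXD4 each had H3K4me3, H3K27Ac and FAIRE, and the height of the tallest FAIRE peak of each gene ranged from 42.8 at MXD3 to 136 at MXD1. MGA and MLX had H3K4me3 and H3K27Ac without FAIRE. MLXIPL, the glucose-responsive partner of MLX, had H3K4me3 alone, with a score of 2506.

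**Figure D5:**
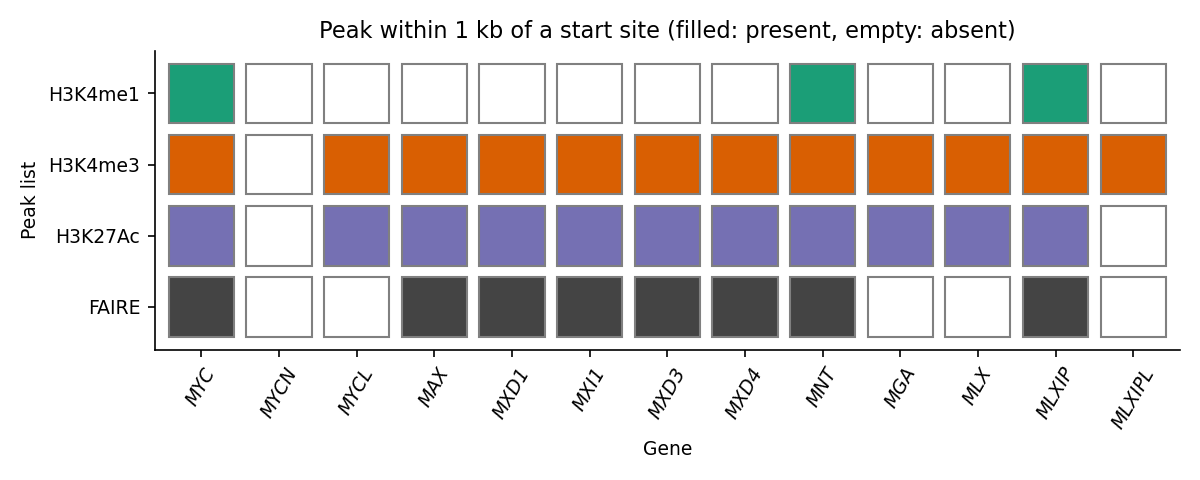
Presence (filled) or absence (empty) of a peak of each list (rows) within 1 kb of an annotated start site of the 13 MAX network genes (columns). MYCN has no filled square and MYC, MNT and MLXIP have 4.

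RefSeq promoters, from 250 bases before to 50 after the start, were available for 12 of the 13 genes, all but MYC, with 17 sequences (GRCh38.p14), and each had 1 exact match on its chromosome in GRCh37. CACGTG was in 3 of the 17, those of MLX, MNT and MXD4, against 7.26% of 35116 RefSeq promoters. The promoters of the unmarked MYCN, of MYCL and MAX, which have H3K4me3, and of the 3 with the E-box (capitals) are printed below from 5' to 3' on the gene's strand, each with its position in GRCh37. The MYCN promoter held 14 CpG, the median of all RefSeq promoters, while that of MYCL held 43 and each of the 2 of MAX 21. The MXD3 promoter, with 12 CpG, and an MXI1 promoter, with 14, also had H3K4me3, while an MGA promoter with 21 had no peak. Of the 2 MAX promoters only the upstream one is printed.
MYCN, chr2:16080422-16080721, plus strand: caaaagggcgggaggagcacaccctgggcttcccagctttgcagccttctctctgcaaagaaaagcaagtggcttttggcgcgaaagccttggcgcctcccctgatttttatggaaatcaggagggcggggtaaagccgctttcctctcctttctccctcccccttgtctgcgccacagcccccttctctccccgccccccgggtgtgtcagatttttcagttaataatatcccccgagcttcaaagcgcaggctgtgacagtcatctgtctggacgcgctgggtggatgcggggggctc
MYCL, chr1:40367540-40367839, minus strand: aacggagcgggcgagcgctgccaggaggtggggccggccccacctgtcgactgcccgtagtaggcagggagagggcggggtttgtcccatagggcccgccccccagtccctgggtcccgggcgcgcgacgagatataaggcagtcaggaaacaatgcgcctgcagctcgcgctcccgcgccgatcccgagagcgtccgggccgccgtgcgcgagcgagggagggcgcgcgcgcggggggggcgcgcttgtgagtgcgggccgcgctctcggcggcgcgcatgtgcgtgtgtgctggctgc
MAX, chr14:65568952-65569251, minus strand: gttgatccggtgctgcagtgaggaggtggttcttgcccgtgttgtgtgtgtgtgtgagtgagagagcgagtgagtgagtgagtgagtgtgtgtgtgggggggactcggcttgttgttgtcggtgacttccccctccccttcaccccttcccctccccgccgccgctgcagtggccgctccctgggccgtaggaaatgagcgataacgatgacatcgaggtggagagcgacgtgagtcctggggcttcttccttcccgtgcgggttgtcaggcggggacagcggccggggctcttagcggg
MLX, chr17:40718868-40719167, plus strand: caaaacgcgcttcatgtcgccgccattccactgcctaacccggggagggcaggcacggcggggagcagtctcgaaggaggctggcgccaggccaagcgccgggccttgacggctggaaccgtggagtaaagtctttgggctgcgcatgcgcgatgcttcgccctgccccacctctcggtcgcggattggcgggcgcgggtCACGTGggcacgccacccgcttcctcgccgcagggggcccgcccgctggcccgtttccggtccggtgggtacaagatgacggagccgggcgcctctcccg
MNT, chr17:2304305-2304604, minus strand: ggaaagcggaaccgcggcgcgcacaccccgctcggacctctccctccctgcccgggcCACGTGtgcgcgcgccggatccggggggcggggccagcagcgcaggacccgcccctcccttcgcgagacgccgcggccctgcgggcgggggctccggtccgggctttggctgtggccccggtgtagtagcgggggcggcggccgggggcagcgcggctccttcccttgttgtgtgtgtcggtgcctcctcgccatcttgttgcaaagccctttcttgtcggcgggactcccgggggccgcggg
MXD4, chr4:2263787-2264086, minus strand: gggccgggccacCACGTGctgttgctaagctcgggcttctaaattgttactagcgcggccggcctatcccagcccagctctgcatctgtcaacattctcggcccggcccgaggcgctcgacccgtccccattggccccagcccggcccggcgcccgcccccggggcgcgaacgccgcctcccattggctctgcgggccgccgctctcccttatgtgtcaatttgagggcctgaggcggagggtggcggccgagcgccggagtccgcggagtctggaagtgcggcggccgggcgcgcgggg

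Marker genes of the line were checked in the same way. VIM, CD44, EGFR and CAV1, genes of mesenchymal and basal-like cells, had peaks of all 4 lists at their start sites. The hormone receptor genes ESR1 and PGR had H3K4me3 and no other mark, and the basal keratin gene KRT5 had none. The epithelial cadherin gene CDH1 had H3K27Ac (538) and FAIRE (31.7) without H3K4me3. ERBB2 had all 4 lists, and TP63 had the 3 histone marks, with scores of at most 315, and no FAIRE peak, so these start sites did not separate the expected groups fully. A peak at a start site is not a measure of expression.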

How the data were processed

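ChIP-seq and FAIRE-seq of MDAMB231 were analysed from the 4 peak lists deposited by the authors. Per the study's methods, reads were aligned to GRCh37 with BWA, duplicates and poorly mapped reads were removed, and peaks were called against input with MACS for histones and FindPeaks for FAIRE. The replicates were analysed apart and then combined, and the text of the methods does not give the step. The submitters' processing notes name TopHat, HOMER and hg19. The score of a histone peak is the authors' own, and the FAIRE signal is the deposited height. The read depth is not given in these lists, and no per-sample value was used.

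Overlap meant at least 1 shared base, and a peak was placed in an intron or exon by its centre. Counting was checked on simulated intervals with bedtools 2.31.1, and computed with python 3.11.15, numpy 2.4.6 and pandas 2.3.3, and figures with matplotlib 3.10.9. Genes and start sites were from GENCODE v44lift37, and 0 rows lay past a chromosome's end. Named were MYC, PVT1, MYCN, MYCL, MAX, the MAX network, listed genes of the window, peaks within 10 kb of MYC or at PVT1 start sites, the 5 highest and 3 widest of each list, the 5 longest clusters and the longest empty stretches. The members and lists were chosen with earlier results of these data known.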

Additional observations from a re-analysis of the deposited data

How the results depend on the processing

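Of 67 values recomputed under the alternatives, 56 kept to within 1.5 times (counts) or the 95% interval (shares and ratios), and 11 did not. With histone peaks of a score of 100 or more, H3K4me1 peaks in the window fell to 33, and those of the list to 57.1%. With FAIRE peaks at or above the list's median height, the FAIRE density ratio rose to 3.0 in the window and 9.97 in PVT1. With the centre of the peak inside the other peak, 49.1% of H3K4me1 and 74.1% of H3K27Ac peaks met a FAIRE peak, against 47.3% and 49.2% of the lists, and with both lists limited 75.0% of H3K27Ac peaks did, against 47.4% of the limited list. Joining H3K27Ac peaks at gaps of 20 kb or less made the longest cluster 179 kb with 14 peaks. Widening by 100 kb gave 10 peaks at MYCL and 24 at MAX. Start sites widened to 5 kb gave 6 of 13 MAX network genes with H3K4me1, against 26.9% of protein-coding genes. Outside the 67 values, the same widening took MAX network genes with all 4 lists from 3 to 5, against 20% of protein-coding genes. The cause of these shifts was not tested, though stricter thresholds and wider spans change counts by construction. The share of PVT1 H3K27Ac peaks with H3K4me1 was 31.6% under every alternative run, while that of the rest of the window went from 74.3% to 62.1% and that of the list from 54.6% to 39.7% with both lists limited. No paired analysis was possible because the 2 replicates of an assay entered a single combined list. Depth per sample, copy number at the locus and expression were not analysed here.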
